A study of Mus musculus with 4 samples.

Results

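RNA-binding proteins of neurons and progenitor cells were followed through 10 of their genes, Elavl2, Elavl3, Elavl4, Ptbp1, Ptbp2, Nova1, Nova2, Msi1, Msi2 and Srrm4, in the postnatal mouse retina. They were chosen by name, from families known for splicing and translation in neural cells, and all 10 are among the 21828 genes that remained after small RNAs were left out. The retinas came from FVB/N mice that carried a fragment of the Hes1 promoter in front of a destabilized EGFP, and neither fraction received any treatment. Retinal cells were sorted at P1 and at P4 (postnatal days 1 and 4) into EGFP-positive cells (pHes1_EPCs) and EGFP-negative cells (pHes1_ENCs), and 1 RNA library was made for each fraction at each age, 4 in all. The transgene was present in both fractions, so that the fractions differ by EGFP and not by genotype. EGFP reports a promoter that is active in Müller glia and in progenitor cells, and how many animals were pooled is not given in the sources used here.

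RNA-binding proteins decide which exons of a transcript are joined and how long or how actively an mRNA is used. In progenitor cells and glia, the polypyrimidine tract-binding protein PTBP1 holds back many exons that neurons include. As neurons form, PTBP1 gives way to its relative PTBP2, and SRRM4, the NOVA proteins and the neuronal ELAVL (Hu) proteins promote neuronal splicing or stabilize neuronal mRNAs. The Musashi proteins MSI1 and MSI2 are known as translational regulators of neural stem cells, and in photoreceptors they also promote the inclusion of exons.

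Levels are given as FPKM, mapped fragments scaled to the length of the transcript and to the size of the library. Genes within a library can be compared on this scale. Comparisons between libraries also depend on the scaling chosen, as given below. A difference is the log2(FPKM + 1) of pHes1_EPCs less that of pHes1_ENCs, which makes it smaller than the log2 ratio for genes of low FPKM. A gene is counted as higher or lower when the difference lies above 1 or below -1, that is, over 2-fold. Ratios are ratios of FPKM, and the range after a ratio comes from the 95% bounds that Cufflinks gave for both libraries. With 1 library in each group no difference within an age or a fraction could be tested. No spread between animals or sorts can be given, and these ranges do not cover it. The half-width of the bounds was 2.14% to 27.7% of the FPKM of the 10 genes. In 10 of the 40 values, those of Msi1, Ptbp2 and Ptbp1, the FPKM lay above its own upper bound.

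The libraries were checked by Hes1, whose FPKM was 16.6 in P1 pHes1_ENCs, 105 in P1 pHes1_EPCs, 3.59 in P4 pHes1_ENCs and 93.5 in P4 pHes1_EPCs. The summed FPKM of 7 progenitor markers (Sox2, Lhx2 and others) was 2392 in P1 pHes1_EPCs and 1434 in P4 pHes1_EPCs, against 643 and 403 in pHes1_ENCs. The 7 rod markers summed to 427 in P1 pHes1_ENCs and 3018 in P4 pHes1_ENCs, against 28.8 and 586 in pHes1_EPCs. Red cell markers, mostly hemoglobin, summed to 108 and 322 in pHes1_ENCs and to 0.353 and 3.95 in pHes1_EPCs. Microglial markers stayed at a summed FPKM of 1.97 to 8.10. The FPKM over all gene lines summed to between 342618 and 450080 in a library, and 1 read was worth at most 1.08 times as much in one library as in another.

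The 10 genes did not divide into a neuronal group in pHes1_ENCs and a progenitor group in pHes1_EPCs as their known roles might imply. At P1, 1 of them, Ptbp1, was over 2-fold higher in pHes1_EPCs, and 5 were lower (Elavl2, Elavl3, Elavl4, Nova2 and Srrm4). Over all 21806 genes compared, 6.08% were higher and 6.78% were lower at P1, and these shares were 10.6% and 11.8% when genes that reached an FPKM of 1 in neither fraction were left out. At P4, Ptbp1 and Nova1 were higher in pHes1_EPCs and Elavl3, Msi1 and Srrm4 were lower, against 9.84% higher and 5.41% lower among all genes, and 17.3% and 9.53% when genes below an FPKM of 1 in both fractions were left out. Only Ptbp1, Elavl3 and Srrm4 kept a difference of over 2-fold in the same direction at both ages, where 1006 of all genes were higher and 707 were lower at both ages. The median difference of the 10 genes was -0.94 at P1 and -0.27 at P4, where that of all genes that reached an FPKM of 1 was 0.03 and 0.17. At P4 other scalings of the libraries moved the median of all genes downward by up to 0.25, and the shares of all genes became 7.77% higher and 6.84% lower after median-of-ratios scaling and 9.23% and 9.92% after rescaling to the same total. Under these scalings the same genes of the 10 were called in each comparison, with the addition of Elavl4 at P4 after rescaling to the same total.

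**Figure D1:**
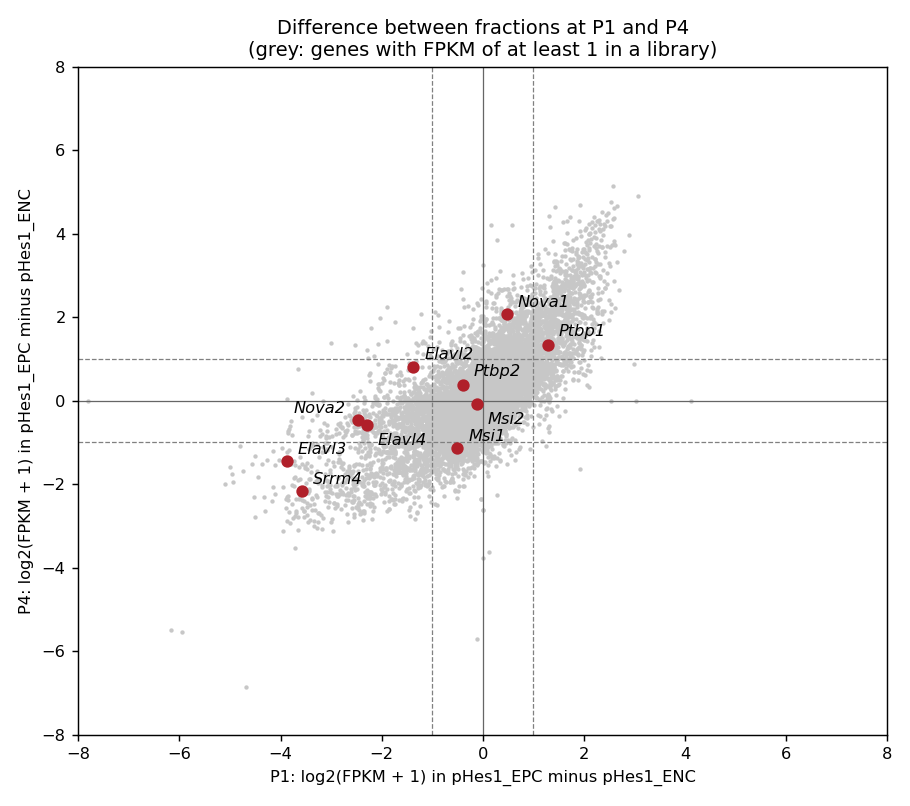
Differences between fractions, as log2(FPKM + 1) in pHes1_EPCs minus pHes1_ENCs, at P1 (horizontal axis) and P4 (vertical axis), with the 10 genes in red, genes that reached an FPKM of 1 in a library in grey and dashed lines at a difference of 1 and -1. Ptbp1 lies at 1.29 and 1.32, Srrm4 at -3.58 and -2.17 and Elavl3 at -3.88 and -1.44, while Elavl2 and Ptbp2 lie below 0 at P1 and above 0 at P4.

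Ptbp1 (chr10:79317350-79327178, NCBI37/mm9), the repressor of neuronal exons, had an FPKM of 66.1 in P1 pHes1_ENCs, 163 in P1 pHes1_EPCs, 42.5 in P4 pHes1_ENCs and 108 in P4 pHes1_EPCs. Both pHes1_EPC libraries were above both pHes1_ENC libraries, and no 2 of the 4 bounds overlapped. The ratio of pHes1_EPCs to pHes1_ENCs was 2.47 (2.29 to 2.63) at P1 and 2.54 (2.33 to 2.73) at P4, which are differences of 1.29 and 1.32. Between these ages Ptbp1 was lower by similar amounts in each fraction, with age differences (P4 minus P1) of -0.62 in pHes1_ENCs and -0.59 in pHes1_EPCs. Among genes that reached an FPKM of 5 in either library, 7.95% had a larger difference in the same direction at P1 and 11.7% at P4. Ptbp1 therefore stood among many genes higher in pHes1_EPCs. In the order of libraries given first, the summed FPKM of 6 cell cycle markers was 224, 963, 62.3 and 397. That of 7 progenitor markers was 643, 2392, 403 and 1434. Both sums ranked the libraries as Ptbp1 did, and the part of either set of cells in the Ptbp1 level was not tested. On the opposite strand, Ptbp1 shares 251 exonic bases with BC005764, 437 with Gm17134 and 85 with E130317F20Rik. In BC005764, 3.57% of the 36-base windows of the Ptbp1 transcript also occur. Some reads of Ptbp1 could belong to these neighbors because the library kit does not mark strand.

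Ptbp2 (chr3:119421660-119486306), the neuronal relative of Ptbp1, was present at a high level everywhere. Its FPKM was 97.1 in P1 pHes1_ENCs, 73.8 in P1 pHes1_EPCs, 70.8 in P4 pHes1_ENCs and 91.9 in P4 pHes1_EPCs, a spread of 1.37-fold from the lowest to the highest. The bounds of the 2 lower libraries overlapped, and so did those of the 2 higher libraries. At P1 Ptbp2 was lower in pHes1_EPCs by a difference of -0.39, and at P4 it was higher by 0.37, or by 0.05 to 0.38 under the other settings tried. At P4 the difference was also close to the median of 0.17 of genes that reached an FPKM of 1, and 39.4% of those that reached 5 had a larger one in that direction. The name of a neuronal RNA-binding protein was thus not matched by a lower mRNA level in the EGFP-positive fraction at P4.

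The balance of the pair also differed between the fractions. The ratio of Ptbp2 to Ptbp1 within a library was 1.47 (1.35 to 1.55) in P1 pHes1_ENCs, 0.453 (0.423 to 0.480) in P1 pHes1_EPCs, 1.66 (1.51 to 1.79) in P4 pHes1_ENCs and 0.851 (0.792 to 0.904) in P4 pHes1_EPCs. Ptbp2 exceeded Ptbp1 in both pHes1_ENC libraries and stayed below it in both pHes1_EPC libraries. The ratio was 3.24 times as high in pHes1_ENCs as in pHes1_EPCs at P1 and 1.95 times as high at P4, and it was 1.88 times as high at P4 as at P1 in pHes1_EPCs. A ratio within a library does not move when the whole library is rescaled by a factor. The third paralog, Ptbp3 (listed under its older symbol Rod1), had an FPKM of 7.03, 9.63, 5.70 and 6.74 in the same order of libraries, with differences of 0.40 and 0.21.

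PTBP1 protein is known to repress a short exon of Ptbp2, and many transcripts without it are degraded, while SRRM4 promotes its inclusion. PTBP1 limits its own mRNA through a similar exon. Both exons are shown because they are the sequence link between the 3 genes Ptbp1, Ptbp2 and Srrm4. Each is given 5′ to 3′ in the gene's direction, with the 34-base exon in capitals, the last 100 bases of the intron before it and the first 20 bases of the intron after it, from NCBI37/mm9 (Ptbp2, exon 10 of 14, minus strand, chr3:119427510-119427663; Ptbp1, plus strand, chr10:79324659-79324812).
Ptbp2: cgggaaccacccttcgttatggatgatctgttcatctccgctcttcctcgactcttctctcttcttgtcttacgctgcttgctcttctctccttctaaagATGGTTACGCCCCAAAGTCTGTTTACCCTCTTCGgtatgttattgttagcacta
Ptbp1: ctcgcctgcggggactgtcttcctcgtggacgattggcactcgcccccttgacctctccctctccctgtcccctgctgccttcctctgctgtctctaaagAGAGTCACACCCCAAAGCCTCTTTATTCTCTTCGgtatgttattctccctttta
The exons were identical at 26 of 34 positions when laid side by side without gaps, which is 76.5%. Before the Ptbp2 exon 73% of the 100 intron bases were pyrimidines (C or T). At least as many stood before 1.56% of 149073 internal exons of protein-coding transcripts, whose median was 55%. Exons after short introns and those of 1 chromosome were not among them. Before the Ptbp1 exon the share was 71%, reached by 2.46% of internal exons. The intron before the Ptbp2 exon held TCTT 6 times and CTCTCT 1 time, and 0.242% of internal exons had at least as many TCTT. The intron before the Ptbp1 exon held TCTT 1 time and CTCTCT 0 times in these letters. At least 1 TCTT stood before 65.3% of internal exons. In the annotation, 5 Ptbp1 transcripts contain the exon and 3 are spliced past it, 2 of which are annotated as subject to nonsense-mediated decay, and in 1 more the exon lies within a retained intron. A gene FPKM counts fragments over all exons and does not measure whether these exons were included, so that inclusion was not measured here.

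**Figure D2:**
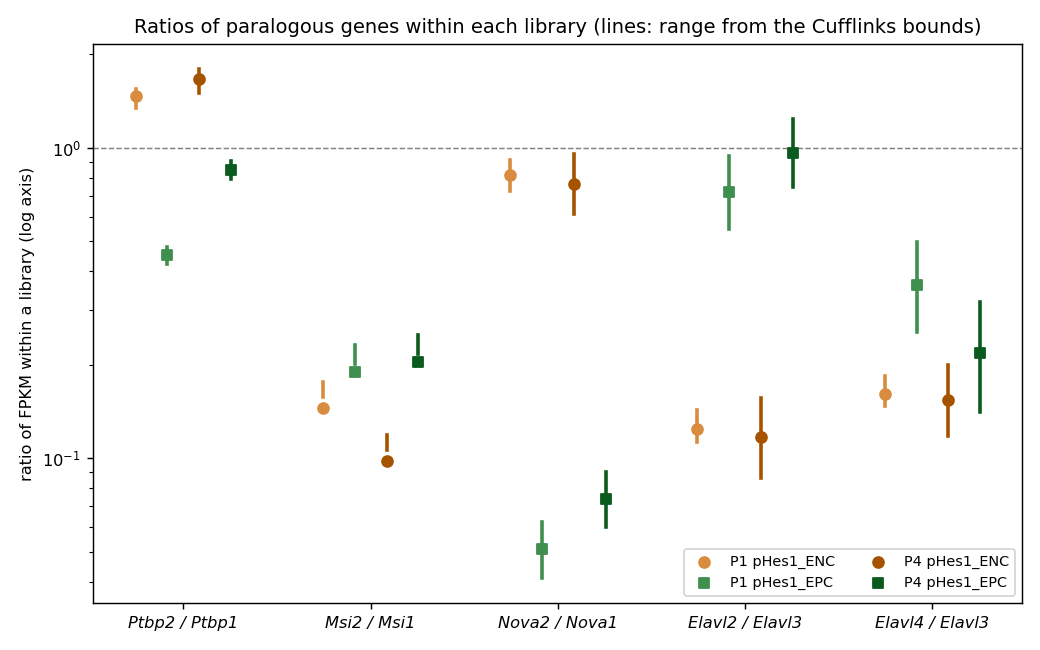
Ratio of FPKM between paralogous genes within each library, on a log axis, with circles for pHes1_ENCs, squares for pHes1_EPCs, the 4 libraries in different colors, lines for the range from the Cufflinks bounds and a dashed line at 1. Ptbp2 exceeds Ptbp1 in both pHes1_ENC libraries alone, and Nova2 to Nova1 is 0.816 and 0.764 in pHes1_ENCs against 0.0508 and 0.0736 in pHes1_EPCs, while the points of Msi2 to Msi1 lie below their ranges because the FPKM of Msi1 lies above its own bounds.

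Srrm4 (chr5:116889282-117041826), which encodes a splicing factor for the microexons of neurons, was the member with the largest difference at P4 on the lower side. Its FPKM was 59.7 in P1 pHes1_ENCs, 4.07 in P1 pHes1_EPCs, 70.9 in P4 pHes1_ENCs and 15.0 in P4 pHes1_EPCs. Both pHes1_ENC libraries were far above both pHes1_EPC libraries, and no 2 of the 4 bounds overlapped. pHes1_ENCs exceeded pHes1_EPCs 14.7-fold (13.3 to 16.5) at P1 and 4.74-fold (4.43 to 5.11) at P4, differences of -3.58 and -2.17. Fewer genes went further, 0.716% of those that reached an FPKM of 5 at P1 and 1.92% at P4. Unlike the other genes that were lower in pHes1_EPCs at P1, Srrm4 was no lower in P4 than in P1 pHes1_ENCs, with an age difference of 0.25, and in pHes1_EPCs it was 3.68 times as high at P4 as at P1 (3.27 to 4.22). It was the only one of the 10 genes over 2-fold higher with age in pHes1_EPCs, where 4.15% of all genes were higher and 2.55% were lower, and 0 of the 10 were lower. Rod markers summed to 28.8 in P1 pHes1_EPCs and 586 in P4 pHes1_EPCs, and to 427 in P1 pHes1_ENCs and 3018 in P4 pHes1_ENCs. Cone markers summed to 86.4 in P1 pHes1_ENCs, 15.1 in P1 pHes1_EPCs, 101 in P4 pHes1_ENCs and 37.0 in P4 pHes1_EPCs. The part of either cell type in the Srrm4 level was not tested. In a bulk library, fewer cells of a type and less RNA in each cell cannot be told apart.

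Srrm4 was read beside genes that act with it. Rest encodes the repressor of neuronal genes that is known to hold Srrm4 down and whose transcript SRRM4 in turn splices to a weak form. Its FPKM was 4.49 in P1 pHes1_ENCs, 12.99 in P1 pHes1_EPCs, 1.51 in P4 pHes1_ENCs and 4.52 in P4 pHes1_EPCs. Rest was higher in pHes1_EPCs by 1.35 at P1 and 1.14 at P4, opposite to Srrm4 at each age, and between ages it was lower by -1.13 in pHes1_ENCs and -1.34 in pHes1_EPCs. Ctdsp1, a phosphatase that REST recruits, was higher in pHes1_EPCs by 1.55 and 1.60, and the corepressor Rcor1 differed by 0.34 and -0.66. Srrm3, the closest relative of Srrm4, had an FPKM of 13.3, 0.685, 16.2 and 3.17 in the order P1 pHes1_ENCs, P1 pHes1_EPCs, P4 pHes1_ENCs and P4 pHes1_EPCs. Srrm3 thus followed the same order as Srrm4 in the 4 libraries, with differences of -3.09 and -2.05.

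Nova1 and Nova2 encode closely related splicing factors of neurons, and their mRNAs lay on opposite sides. Nova1 (chr12:47795504-47919762) had an FPKM of 10.8 in P1 pHes1_ENCs, 15.4 in P1 pHes1_EPCs, 2.098 in P4 pHes1_ENCs and 11.99 in P4 pHes1_EPCs. At both ages the EGFP-positive fraction was above the negative one, and the bounds of P1 pHes1_ENCs and P4 pHes1_EPCs overlapped. The ratio of pHes1_EPCs to pHes1_ENCs was 1.42 (1.27 to 1.59) at P1 and 5.71 (4.82 to 6.72) at P4, differences of 0.47 and 2.07. The wider gap at P4 went with a lower level in pHes1_ENCs, where the age difference was -1.93, against -0.34 in pHes1_EPCs.

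Nova2 (chr7:19511237-19550668) had an FPKM of 8.85 in P1 pHes1_ENCs, 0.784 in P1 pHes1_EPCs, 1.60 in P4 pHes1_ENCs and 0.882 in P4 pHes1_EPCs. Only P1 pHes1_ENCs stood apart at a high level, and the bounds of both pHes1_EPC libraries overlapped. It exceeded pHes1_EPCs 11.3-fold (9.23 to 14.0) there at P1 and 1.82-fold (1.41 to 2.38) at P4, differences of -2.46 and -0.47. Within a library, the ratio of Nova2 to Nova1 was 0.816 in P1 pHes1_ENCs and 0.764 in P4 pHes1_ENCs, and 0.0508 and 0.0736 in pHes1_EPCs. This ratio was 16.1 times as high in pHes1_ENCs as in pHes1_EPCs at P1 and 10.4 times as high at P4, so that Nova1 made up nearly all of the pair in pHes1_EPCs. Nova2 shares 2652 exonic bases with Gm17370 on the opposite strand, so that some of its reads could belong to that gene. Dab1, whose transcript carries exons known to be regulated by NOVA2, was higher in pHes1_EPCs by 1.30 and 2.01.

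**Figure D3:**
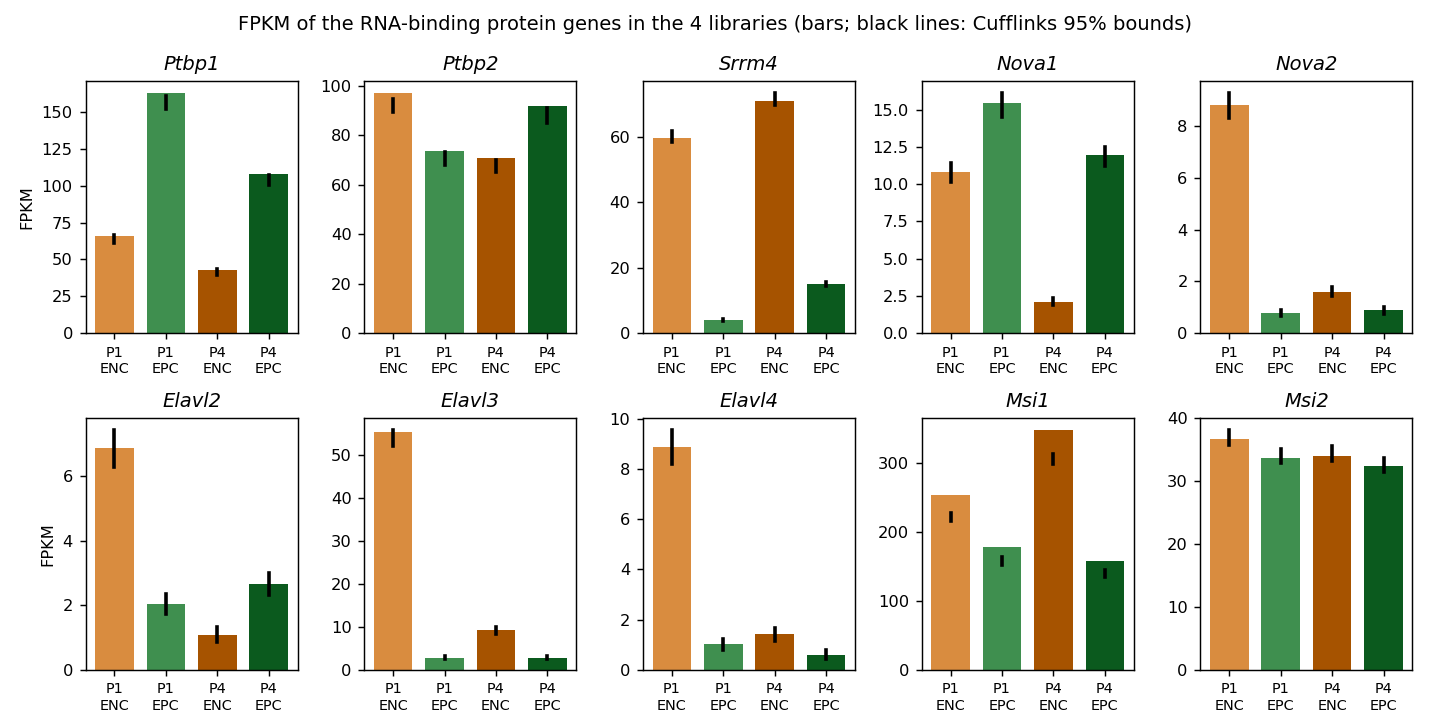
FPKM of the 10 genes in the 4 libraries, 1 panel for each gene with its own axis from 0, as bars (orange, pHes1_ENCs and green, pHes1_EPCs) with black lines for the Cufflinks 95% bounds. Ptbp1 is higher and Srrm4 lower in both pHes1_EPC libraries, Elavl2, Elavl3, Elavl4 and Nova2 are highest in P1 pHes1_ENCs, and Msi2 ranges only from 32.4 to 36.7.

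The neuronal Elavl genes encode Hu proteins, which bind AU-rich elements, stabilize mRNAs and regulate splicing. Elavl3 (HuC, chr9:21819449-21856467) had an FPKM of 55.3 in P1 pHes1_ENCs, 2.82 in P1 pHes1_EPCs, 9.22 in P4 pHes1_ENCs and 2.77 in P4 pHes1_EPCs. It was highest in P1 pHes1_ENCs by far, next in P4 pHes1_ENCs, and the bounds of both pHes1_EPC libraries overlapped. pHes1_ENCs exceeded pHes1_EPCs 19.6-fold (16.5 to 22.5) at P1 and 3.33-fold (2.72 to 4.06) at P4, differences of -3.88 and -1.44. At P1, 0.322% of genes that reached an FPKM of 5 had a larger difference in that direction. With age Elavl3 was lower by -2.46 in pHes1_ENCs and differed by -0.02 in pHes1_EPCs.

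Elavl4 (HuD, chr4:109876342-110024516) was expressed at lower levels, with an FPKM of 8.90 in P1 pHes1_ENCs, 1.02 in P1 pHes1_EPCs, 1.42 in P4 pHes1_ENCs and 0.606 in P4 pHes1_EPCs. It stood out in P1 pHes1_ENCs, and the bounds of P1 pHes1_EPCs and P4 pHes1_ENCs overlapped. The ratio of pHes1_ENCs to pHes1_EPCs was 8.75 (6.68 to 11.9) at P1 and 2.35 (1.51 to 3.84) at P4. At P4 the ratio exceeded 2 while the difference on the log2(FPKM + 1) scale was -0.59, so that Elavl4 at P4 counts as lower only with a smaller pseudocount or none, or after rescaling to the same total (-1.11).

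Elavl2 (HuB, chr4:90917457-91066675) turned around between the ages. Its FPKM was 6.85 in P1 pHes1_ENCs, 2.04 in P1 pHes1_EPCs, 1.08 in P4 pHes1_ENCs and 2.66 in P4 pHes1_EPCs. pHes1_ENCs were the highest library at P1 and the lowest at P4, and the bounds of both pHes1_EPC libraries overlapped. The difference was -1.37 at P1 and 0.81 at P4, where the ratio of pHes1_EPCs to pHes1_ENCs was 2.46 (1.77 to 3.53). The change of sign came with a 6.34-fold lower level (4.79 to 8.73) in pHes1_ENCs at P4 than at P1.

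Together Elavl2, Elavl3 and Elavl4 summed to an FPKM of 71.1 in P1 pHes1_ENCs, 5.88 in P1 pHes1_EPCs, 11.7 in P4 pHes1_ENCs and 6.04 in P4 pHes1_EPCs. Elavl3 made up 77.8% and 78.6% of this sum in pHes1_ENCs and 48.1% and 45.9% in pHes1_EPCs. The share of Elavl3 thus differed between fractions at both ages, while the sum was lower at P4 than at P1 in pHes1_ENCs and nearly equal at both ages in pHes1_EPCs. Elavl1, the ubiquitous member of the family, had an FPKM of 21.1, 20.8, 22.8 and 26.8 in the same order, and it exceeded the sum of the neuronal members in each library but P1 pHes1_ENCs. Gap43, a growth cone protein whose mRNA is a known Hu target, had differences of -1.54 at P1 and -0.41 at P4.

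Of the 10 genes 5, Elavl2, Elavl3, Elavl4, Nova1 and Nova2, were over 2-fold lower in P4 than in P1 pHes1_ENCs and 0 were higher, where 5.93% of all genes were lower and 2.75% were higher. Their age differences lay between -2.46 and -1.92, and between -0.34 and 0.27 in pHes1_EPCs, where 5 of 5 stayed within 2-fold. In pHes1_EPCs the sign of Nova2 (0.08) and of Ptbp2 (0.31) turned under other scalings, to as low as -0.12 and -0.06. These age differences use the same 4 libraries as the differences between fractions, so they are no independent values. Of 7 amacrine markers, 6 were also over 2-fold lower in P4 than in P1 pHes1_ENCs, with Slc6a9 as the exception. So were 5 of 7 progenitor, 5 of 6 cell cycle, 5 of 6 ganglion cell and 4 of 9 Müller glia markers. Over 2-fold higher there were 1 of the 9 Müller glia markers and 7 of 7 rod markers. The summed FPKM of the amacrine markers was 274 in P1 pHes1_ENCs, 12.9 in P1 pHes1_EPCs, 84.1 in P4 pHes1_ENCs and 19.3 in P4 pHes1_EPCs. Without Slc6a9 the other 6 summed to 255, 11.1, 21.6 and 9.17. From lowest to highest, Nova1 and Elavl2 had other orders of libraries than either sum. Ganglion cell markers summed to 32.1, 17.4, 3.28 and 2.20 in the same order. The part of any of these cell types in the levels of the Elavl and Nova genes was not tested.

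Of the Musashi genes, known from neural stem cells, neither was over 2-fold higher in pHes1_EPCs, and Msi1 was over 2-fold lower at P4. Msi1 (chr5:115879694-115904211) had an FPKM of 254 in P1 pHes1_ENCs, 179 in P1 pHes1_EPCs, 349 in P4 pHes1_ENCs and 159 in P4 pHes1_EPCs, above 98.4% to 99.7% of genes in the 4 libraries. Both pHes1_ENC libraries were above both pHes1_EPC libraries, and no 2 of the 4 bounds overlapped, although the FPKM lay above these bounds in every library. pHes1_ENCs exceeded pHes1_EPCs 1.42-fold (1.32 to 1.50) at P1 and 2.20-fold (2.06 to 2.33) at P4, differences of -0.50 and -1.13. Msi1 was higher in P4 than in P1 pHes1_ENCs by 0.46 and differed by -0.17 in pHes1_EPCs. Rod markers were also higher at P4 than at P1 in pHes1_ENCs (427 and 3018). They were higher at P4 in pHes1_EPCs too (28.8 and 586), where Msi1 was not. The part of rods in the Msi1 level was not tested.

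Msi2 (chr11:88152884-88579543) was the steadiest of the 10 genes. Its FPKM was 36.7 in P1 pHes1_ENCs, 33.8 in P1 pHes1_EPCs, 34.1 in P4 pHes1_ENCs and 32.4 in P4 pHes1_EPCs, with 1.13-fold between the highest and the lowest. The differences were -0.12 at P1 and -0.07 at P4, where the bounds of the fractions overlapped. Relative to Msi1, Msi2 was 0.145 in P1 pHes1_ENCs, 0.189 in P1 pHes1_EPCs, 0.0977 in P4 pHes1_ENCs and 0.204 in P4 pHes1_EPCs, so that Msi1 made up most of the pair in each library. Genes known for exons that Musashi proteins regulate in photoreceptors, Prom1 (-1.34 and -2.16) and Ttc8 (-0.89 and -1.35), were lower in pHes1_EPCs. Numb, the classical target whose translation MSI1 represses, differed by 0.07 and -0.04.

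Promoter sequences are shown for the 3 genes that kept a difference of over 2-fold at both ages. They are the 250 bases before the start in RefSeq (GRCm38), each found at 1 place in NCBI37/mm9, with every E box (CANNTG, the motif of proneural and other basic helix-loop-helix factors, the same letters on both strands) in capitals. Elavl3 lies at chr9:21856468-21856717 on the minus strand, Srrm4 at chr5:117041827-117042076 on the minus strand and Ptbp1 at chr10:79316927-79317176 on the plus strand.
Elavl3: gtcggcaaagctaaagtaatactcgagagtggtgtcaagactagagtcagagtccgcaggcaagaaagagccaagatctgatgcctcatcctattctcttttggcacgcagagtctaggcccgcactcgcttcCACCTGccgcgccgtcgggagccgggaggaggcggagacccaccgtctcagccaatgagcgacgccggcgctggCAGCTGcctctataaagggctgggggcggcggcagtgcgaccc
Srrm4: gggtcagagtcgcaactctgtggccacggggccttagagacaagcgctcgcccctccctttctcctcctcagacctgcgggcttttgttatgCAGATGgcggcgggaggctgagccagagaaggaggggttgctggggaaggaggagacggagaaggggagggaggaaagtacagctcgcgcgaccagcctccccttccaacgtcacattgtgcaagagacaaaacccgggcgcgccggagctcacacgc
Ptbp1: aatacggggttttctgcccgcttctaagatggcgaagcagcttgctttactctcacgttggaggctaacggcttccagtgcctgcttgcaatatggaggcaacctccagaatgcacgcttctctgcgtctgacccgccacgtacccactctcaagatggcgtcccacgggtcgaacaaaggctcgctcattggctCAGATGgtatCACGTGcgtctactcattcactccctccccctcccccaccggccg
An E box was found in 13 of the 19 promoter windows of the 9 genes with an entry (7 genes), and in 66.2% of all 32851 windows of that length. All 3 promoters above hold one, whether the gene was higher in pHes1_ENCs or in pHes1_EPCs. The first part of the REST site, TTCAGCACC, was in 0 of the 19 windows and in 0.301% of all windows, searched on both strands. The RBPJ motif TGGGAA of Notch signaling was in 0 of them and in 21.6% of all windows, and the N box CACNAG bound by HES proteins was in 3 of the 19, all of Elavl4, and in 36.7% of all windows. These matches describe letters and no binding was measured here.

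Other genes for RNA-binding proteins, 77 in all, lay on both sides. At P1 1 of the 77 was over 2-fold higher in pHes1_EPCs and 11 were lower, and at P4 5 were higher and 10 were lower, with a median difference of 0.13 and 0.33. Among all genes, as above, 6.08% were higher and 6.78% lower at P1 and 9.84% higher and 5.41% lower at P4. In the list of 12 Rbfox, Celf and Mbnl genes, which regulate alternative exons, 7 were lower at P1 and 4 at P4, and 1 was higher at each age, while the lower genes were of the Rbfox and Celf families alone. Celf3 had an FPKM of 117 in P1 pHes1_ENCs, 4.89 in P1 pHes1_EPCs, 127 in P4 pHes1_ENCs and 25.0 in P4 pHes1_EPCs, with differences of -4.33 and -2.30. Celf4 (-3.24 and -1.35) and Celf6 (-1.74 and -1.58) were lower as well, and Rbm24 outside this list had -2.79 and -2.03. These genes, like Srrm4 and Elavl3, were over 2-fold lower in pHes1_EPCs at both ages, as were 7 of the 77 in all. Rbfox2, chosen after its values were seen, turned from -1.21 to 1.38, with an FPKM of 44.5, 18.7, 5.92 and 17.0 in the same order of libraries.

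General splicing factors differed less. Of 13 genes for hnRNP proteins, Raver proteins, Elavl1 and Ptbp3, 0 were over 2-fold higher at P1 and 1 at P4, and 0 were lower. Raver1, a known partner of PTBP1, was higher in pHes1_EPCs by 0.95 and 0.65. Of 17 genes for STAR, SR and SR-related proteins, 0 were higher at P1 and 3 at P4, and Srrm3 was the only gene over 2-fold lower at both ages. Tra2b (0.75 and 0.94), Srsf2 (0.70 and 0.75) and Srsf7 (0.63 and 0.86), general regulators of exon inclusion, were higher in pHes1_EPCs by under 2-fold. Igf2bp2, which encodes an mRNA-binding protein of growing cells, had 0.78 and 0.68. Of 26 genes for translation and localization, 0 were higher and 2 were lower at P1 and 4 at P4, and of 9 other genes 1 was lower at each age.

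**Figure D4:**
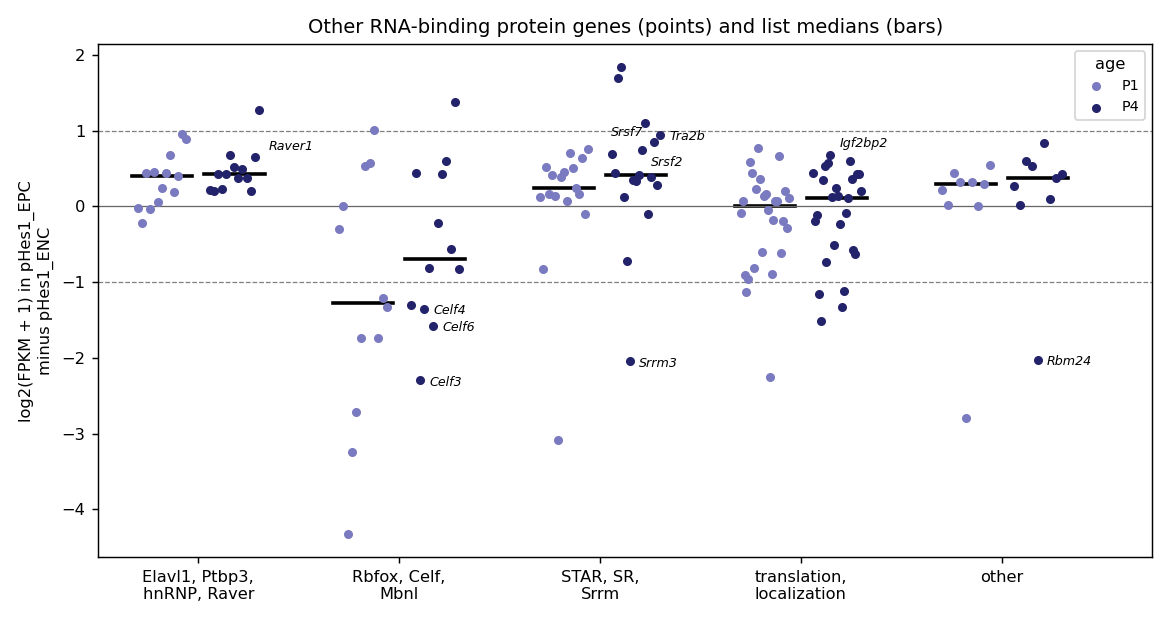
Differences between fractions, as log2(FPKM + 1) in pHes1_EPCs minus pHes1_ENCs, of 77 other RNA-binding protein genes in 5 lists (points; light, P1 and dark, P4), with black bars for list medians, dashed lines at 1 and -1 and names beside the P4 points of 10 genes. The Rbfox, Celf and Mbnl list has the lowest median, -1.27 at P1 and -0.69 at P4, and the medians of the hnRNP list are 0.40 and 0.42.

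Of the 11 genes on which these proteins are known to act, 3 were over 2-fold higher in pHes1_EPCs and 3 were lower at P1, and again 3 and 3 at P4, where among all genes 6.08% were higher and 6.78% lower at P1 and 9.84% and 5.41% at P4. Dlg4, the postsynaptic protein PSD-95 whose exon PTBP1 and PTBP2 repress, was lower by -1.83 and -1.89, with an FPKM of 39.8 in P1 pHes1_ENCs, 10.5 in P1 pHes1_EPCs, 59.5 in P4 pHes1_ENCs and 15.3 in P4 pHes1_EPCs. Pkm (listed as Pkm2), a glycolytic enzyme with a pair of exons chosen under PTBP1, differed by 0.09 and 0.15. Dlg4 was higher in pHes1_ENCs at both ages, where Ptbp1 was lower at both ages and Ptbp2 was higher at P1 and lower at P4. The total level of Pkm hardly differed. Inclusion of these exons was not measured, and the part of PTBP1 or PTBP2 in these levels was not tested.

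The genes nearest in pattern were taken over 10446 genes that reached an FPKM of 5 in a library, by the distance between centered log2(FPKM + 1) values over the 4 libraries. Nearest to Elavl3 were Ptf1a, Slc32a1 and Dlg2, with distances of 0.17 to 0.18, and Ptf1a and Slc32a1 belong to the amacrine markers above. Nearest to Nova2 were Palmd, Srcin1 and Ttc9b, and Ptpro and Prdm1 were among the 3 nearest to Srrm4. Cenpq, Ccdc34 and Nedd1 were nearest to Ptbp1, with differences of 1.25 to 1.42. Ptbp2 was followed most closely by Tuba1a, Zfp354c and 9530082P21Rik, Msi1 by Sugp2, Zbtb34 and Negr1, and Msi2 by Zc3h11a, Dhx57 and Cbll1. With 4 libraries many genes share a pattern, and after quantile normalization 0 of the 3 nearest genes remained for Ptbp1, Ptbp2 and Msi1, and 1 for Msi2.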

How the data were processed

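RNA from 4 libraries, 1 for each fraction and age, was analyzed. Per the labels, random-primed cDNA was read as single ends of 36 bases. The authors aligned the reads to NCBI37/mm9 with TopHat 2.0.8b, with at most 50 positions per read. The deposited FPKM are those of Cufflinks 2.1.1, with 95% bounds and a status. They were used without further scaling. Reads shared by paralogs could therefore be split between them. Of each of the 10 genes except Ptbp1, at most 0.561% of the 36-base windows occurred in protein-coding transcripts of another gene. That search did not cover other transcripts. On the opposite strand, Nova2 shares 2652 exonic bases with Gm17370 and Srrm4 shares 68 with 2410137F16Rik. Read counts were not used here, so depth was judged from the bounds.

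Small RNAs were left out, and for a symbol with several lines the one with the highest FPKM was kept. The 22 genes with status FAIL, listed at 0, were left out of counts. Python 3.11.15, numpy 2.4.6, pandas 2.3.3 and matplotlib 3.10.9 were used. Genes named are the 10 genes, their targets, their 3 nearest patterns, Elavl1, Ptbp3 and, from the related lists, the top 5 in each direction ranked by whichever of the differences at P1 and P4 was smaller, among genes that reached an FPKM of 5. Some of these genes are not reported here. The genes and lists were chosen with earlier results of these data known. The alternatives were 2 other pseudocounts, 4 other scalings, summed lines, a filter on FPKM, small RNAs kept and bounds that do not overlap.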

Additional observations from a re-analysis of the deposited data

Results flagged for a closer look

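Elavl2 and Ptbp2 differed between the fractions in opposite directions at P1 and P4, which drew attention to them among the 10 genes. For Elavl2 the difference of log2(FPKM + 1) in pHes1_EPCs minus pHes1_ENCs changed from -1.37 (P1) to 0.81 (P4). Ptbp2 had differences of -0.39 (P1) and 0.37 (P4). With 1 library in each group, the change between the ages was not tested.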

How the results depend on the processing

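Each group holds 1 library and the labels give no replicate numbers, so no library could be left out of a group. A fit of fraction with age as a block, which would take the change between ages as its error, was not run. All 80 counts of the 10 genes over 2-fold under the 10 alternatives stayed within 1.5 times the count reported. Summed lines, small RNAs kept and the filter on FPKM could not have changed these counts. At P4, a pseudocount of 0.1 or none added Elavl2 to the higher genes (3) and Elavl4 to the lower genes (4), and rescaling to the same total also added Elavl4. The sign of the differences held under every alternative for 10 of 10 genes in both differences between fractions and in the age difference of pHes1_ENCs, and for 8 of 10 in the age difference of pHes1_EPCs, where Nova2 (-0.12 to 0.17) and Ptbp2 (-0.06 to 0.32) turned. Among the recomputed differences, 214 moved no further than the wider side of the range from the Cufflinks bounds and 106 moved beyond it. The 214 include the differences under summed lines and with small RNAs kept, which could not change the values of the 10 genes. Of 20 paralog ratios, 17 stayed within their range from the bounds or close to the value reported after quantile normalization. The ratios of Msi2 to Msi1 lay outside their ranges before it. The share of all genes over 2-fold was 2.55% to 9.84% as reported, up to 14.7% with a pseudocount of 0.1 and up to 22.6% with none. After rescaling to the same total, 2182 genes, against 1294, were lower with age in pHes1_ENCs, and 3.29% were higher and 6.48% lower in pHes1_EPCs. Relative to the FPKM, the bounds were widest for low values, with a half-width of up to 27.7%.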
